A study of Danio rerio with 18 samples.

Results

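The genes examined were 10 members of the Hippo pathway of the zebrafish, chosen by name: the coactivators yap1 and wwtr1 (Taz), the TEAD transcription factors tead1a, tead1b and tead3b, the YAP and TEAD target genes ccn1, ccn2a, amotl2a and amotl2b, and the kinase lats2. Rows were found by matching the RefSeq accessions of the count tables to these symbols, which gave 1 accession each for 8 of the 10 genes, out of 18356 genes with a symbol. No row was matched to tead1b or amotl2b, and they were not analysed here. Of the 8, 6 had enough counts to be tested among 14462 accessions, and tead1a and lats2 did not.

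In the Hippo pathway, kinases of the MST family with their scaffold Sav1 activate the LATS kinases and their Mob1 partners, and LATS phosphorylates YAP and TAZ, which holds these coactivators in the cytoplasm. Unphosphorylated YAP and TAZ enter the nucleus and bind TEAD factors at genes such as ccn1 and ccn2a, which encode secreted matrix-associated proteins. The pathway is known for its control of organ size and its response to cell shape and tension, and YAP is also known from work on cystic kidneys.

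RNA was sequenced from fragments of the pronephric duct, the tube of the embryonic kidney, at 30 hours after fertilisation. All embryos carried the Na, K-ATPase alpha1A4:GFP transgene, whose fluorescence was used to pick the fragments by eye after enzyme treatment, so a fragment may carry neighbouring cells. The 10 control libraries, with the genotype given as WT, were made from embryos given a standard control morpholino at the 1-cell stage. Those of the 8 other libraries, called actl6a libraries here and with the genotype given as actl6a knockdown, were given a morpholino that blocks the translation of actl6a. Actl6a is an actin-related subunit of SWI/SNF chromatin remodelling complexes, and the title of the study places it in cilia stability and kidney development. A morpholino lowers protein rather than deleting a gene, and the labels speak of about 10 fragments taken from 15 embryos without saying how many went into a library. Nothing in the labels says that the libraries of a group came from separate injections, so p-values measure the spread between these libraries, which may be technical. Each group also has its own count table and its own set of barcodes, so a batch and the group cannot be told apart.

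Library totals were between 1564673 and 3301873 counts for controls and between 1731521 and 3393310 counts for actl6a libraries. Means below are ± SD over the 10 controls or the 8 actl6a libraries unless another n is given. The actl6a transcript, which a translation block need not lower, averaged 109.5 ± 15.6 CPM (counts per 1000000 counts) among controls and 138.6 ± 12.4 CPM among actl6a libraries, where it was higher (log2 fold change 0.34, adjusted p 0.0137 by edgeR), with 5 of 8 above every control. Duct identity was visible in the cadherin gene cdh17, at 997 to 1323 CPM in controls and 991 to 1262 CPM in actl6a libraries, and in atp1a1a.4, the subunit whose promoter drives the GFP, at 1309 to 2511 and 1154 to 1694 CPM. The duct marker hnf1ba was uneven among controls, at 0.281 to 357.8 CPM, against 162.1 to 292.4 CPM in actl6a libraries. Of the controls, 2 lay below every actl6a library and 2 above (adjusted p 0.947 by edgeR). Control replicate 4 stood apart: it had the lowest total, and it lay at 132.1 on the first principal component of log2 CPM, where the other 17 libraries lay between −79.2 and 56.2. Results that rest on it are given with and without it.

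Of the 6 tested genes, ccn2a and yap1 were lower in actl6a libraries at an adjusted p under 0.05, and the other 4 did not pass the test. The share of all tested accessions called in either direction was 16.4%, with 8.52% lower and 7.90% higher. At an unadjusted p under 0.05 edgeR had 4507 of the 14462 tested accessions, both directions together. DESeq2 called 1574 accessions higher and 1475 lower, and limma-voom with sample weights 1244 and 1258. The ccn2a call held without control replicate 4, and the yap1 call did not. All 6 fitted log2 fold changes (log2FC, actl6a over control, ± SE) were below 0, with a median of −0.19 beside 0.011 for all tested accessions. With library totals in place of TMM scaling, the calls over all accessions split into 852 higher and 1608 lower, against 1143 and 1232. Throughout, adjusted p is by the Benjamini-Hochberg method over all tested accessions and comes from the quasi-likelihood test of edgeR unless another tool is named. In bulk fragments, fewer cells that express a gene and less RNA per cell cannot be told apart.

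**Figure D1:**
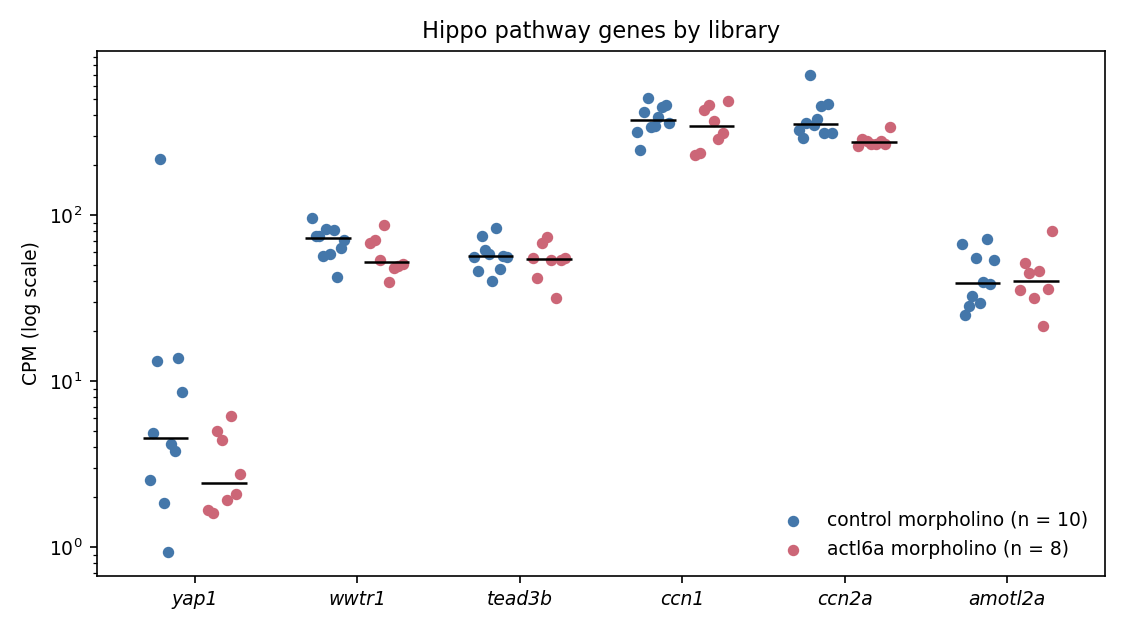
Level of each tested Hippo pathway gene in each library, in CPM on a log scale, with 1 point per library (10 control, 8 actl6a) and a black line at the group median. The ccn2a points of 7 actl6a libraries lie below all 10 controls, and the yap1 point of control replicate 4, at 218.5 CPM, lies far above all other libraries.

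The gene of the coactivator Yap, yap1 (NM_001139480.1), had few counts in nearly every library. Control levels ran from 0.935 CPM through a median of 4.54 CPM to 218.5 CPM, and actl6a levels from 1.61 CPM through a median of 2.43 CPM to 6.15 CPM. Control replicate 4 alone held 336 counts, 15.9 times the CPM of the next highest library, while the other 9 controls held 3 to 47 counts and the actl6a libraries 3 to 22. Leaving that library aside, controls averaged 5.97 ± 4.78 CPM (SD, n = 9) against 3.21 ± 1.75 CPM, and the groups overlapped.

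The fitted log2FC of yap1 was −3.02 ± 0.967 with an adjusted p of 0.0382. Control replicate 4 contributed 80.3% of the summed control CPM, and without it the log2FC was −0.88 with an adjusted p of 0.234. The call was also lost without actl6a replicate 1, 2, 3, 4, 5, 7 or 8, with adjusted p from 0.0522 to 0.0672. DESeq2 gave −0.82 (adjusted p 0.268) and limma-voom with sample weights −0.59 (adjusted p 0.569). With the single high library left out, a lower level of yap1 was not shown.

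**Figure D2:**
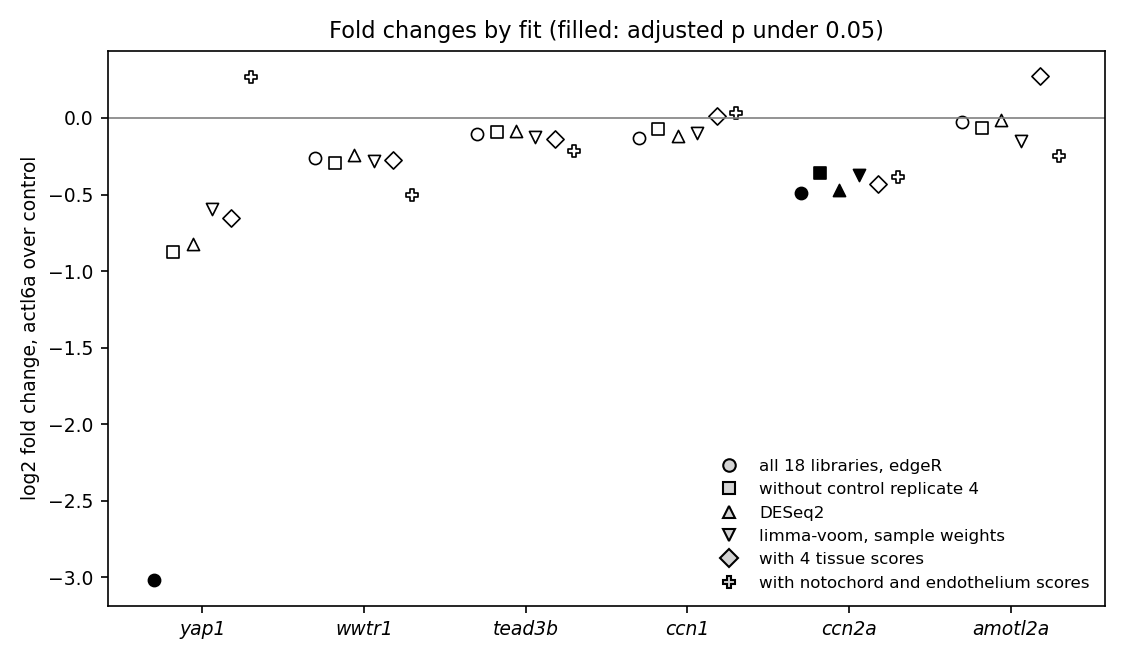
Fitted log2FC of actl6a over control for each tested gene under 6 fits, with filled symbols for an adjusted p under 0.05. The yap1 value moves from −3.02 to −0.88 without control replicate 4, while ccn2a stays between −0.49 and −0.36 and loses its call with either set of tissue scores as covariates.

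The paralogous coactivator gene wwtr1 (XM_005161848.4), which encodes Taz, was measured with 62 to 267 counts per library. It ran from 42.5 CPM through 72.9 CPM to 95.7 CPM in controls and from 39.7 CPM through 51.8 CPM to 87.4 CPM in actl6a libraries. Although 7 of 8 actl6a libraries lay below the control median, the ranges overlapped widely, and the log2FC of −0.26 ± 0.161 did not pass the test (adjusted p 0.279).

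Among the TEAD factors, the DNA-binding partners of Yap and Taz, tead3b (XM_005166141.4) was the one with enough counts to be tested. Its level was 57.9 ± 12.9 CPM in controls, from 39.9 to 83.0 CPM, and 53.97 ± 13.3 CPM in actl6a libraries, from 31.6 to 73.7 CPM. The log2FC was −0.10 ± 0.163, with an adjusted p of 0.716, smaller than its own error. The accession of tead1a (XM_009297895.3) held 0 to 21 counts in controls, with medians of 1.13 CPM there and 2.30 CPM in actl6a libraries, which held 2 to 23 counts. The highest values were 6.42 CPM in control replicate 2 and 8.48 CPM in actl6a replicate 4. In a fit without a filter on low counts its log2FC was 0.62 ± 0.683, with an adjusted p of 0.609.

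The target gene ccn2a (NM_001015041.2), formerly ctgf, encodes a matricellular protein and is widely used as a readout of Yap and Taz activity. Control levels ran from 290.9 CPM through a median of 352.7 CPM to 701.1 CPM, on 642 to 1407 counts. Actl6a levels ran from 262.1 CPM through a median of 273.8 CPM to 337.6 CPM, on 418 to 1003 counts. Of the 8 actl6a libraries 7 lay below every control, and the other, replicate 8, lay at 337.6 CPM, so that 6 of the 10 controls were above all actl6a libraries.

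The log2FC of ccn2a was −0.49 ± 0.141 (adjusted p 0.0234), and all 8 actl6a libraries lay below the control median. Without control replicate 4, the highest library, controls averaged 360.4 ± 61.9 CPM (SD, n = 9) against 280.9 ± 24.4 CPM, and the log2FC was −0.36 with an adjusted p of 0.0162. The fits that each left out 1 of the 18 libraries gave −0.54 to −0.36, and the call was kept in all of them, with adjusted p from 0.0148 to 0.0430. When scores of 4 marker lists (muscle, blood, epidermis, neural) entered the fit as covariates it was −0.43 with an adjusted p of 0.152.

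The related target ccn1 (NM_001001826.2), formerly cyr61, encodes a secreted protein of the same family. It ran from 246.0 CPM through 374.9 CPM to 509.9 CPM in controls and from 229.6 CPM through 342.0 CPM to 483.8 CPM in actl6a libraries, on 579 to 1479 counts. Highest among the controls was again replicate 4, the groups overlapped over nearly their whole range, and the log2FC was −0.13 ± 0.158 with an adjusted p of 0.626. That sign turned with tissue scores as covariates, to 0.02 with the 4 scores and 0.04 with notochord and endothelium scores.

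**Figure D3:**
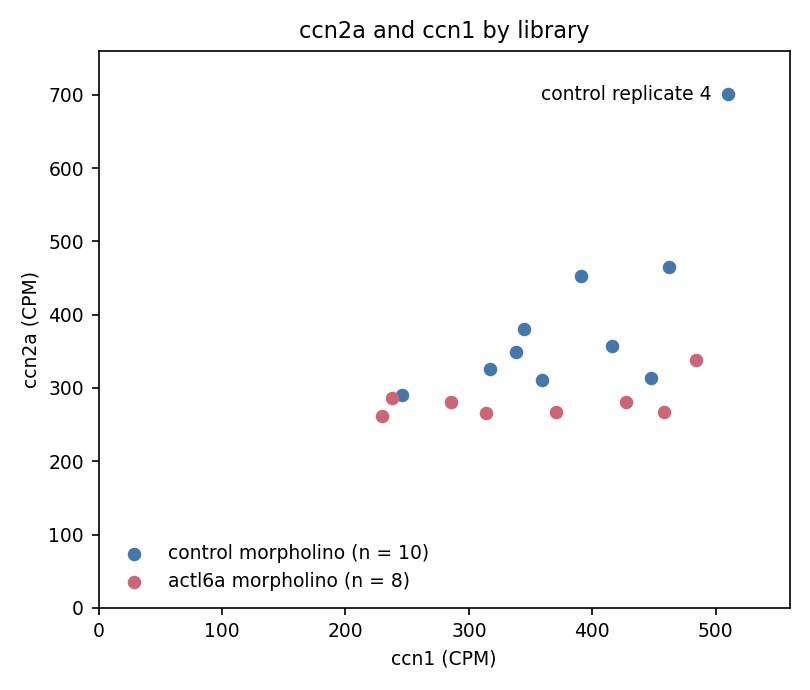
Level of ccn2a against ccn1 in each library, in CPM on linear axes from 0 (10 control, 8 actl6a). The actl6a libraries keep ccn2a between 262.1 and 337.6 CPM while ccn1 runs from 229.6 to 483.8 CPM, and control replicate 4 is highest for both genes.

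Whether ccn2a and ccn1 changed differently was tested on the within-library difference of their log2 CPM, ccn2a minus ccn1. This was 0.020 ± 0.277 (SD) in controls and −0.27 ± 0.383 (SD) in actl6a libraries. The groups differed by −0.29 (two-sided exact permutation p = 0.0783, 0.157 adjusted over 2 contrasts), with 6 of 8 actl6a libraries below the control median. A difference between the responses of these 2 targets was therefore not shown. For yap1 minus wwtr1 the groups differed by −0.81 (two-sided exact permutation p = 0.355, 0.355 adjusted), or by −0.25 without control replicate 4.

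The third target, amotl2a (NM_001080177.1), encodes an angiomotin-like scaffold of cell junctions that binds Yap and so is both a target and a brake of the pathway. It ran from 25.1 CPM through 39.0 CPM to 71.8 CPM in controls and from 21.5 CPM through 40.3 CPM to 80.3 CPM in actl6a libraries, on 50 to 189 counts. With 4 of 8 actl6a libraries below the control median, the groups overlapped throughout. Its log2FC was −0.03 ± 0.250, with an adjusted p of 0.959, and its sign turned in 8 of the 18 fits that left out 1 library and with the 4 tissue scores (0.27).

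The kinase gene lats2 (NM_001123307.1), whose product phosphorylates Yap and Taz, was nearly without counts. Control replicate 8 had 2 counts and control replicate 9 had 1, and the other 16 libraries had 0. The limit that 0 counts set was 3 counts, or 0.884 to 1.92 CPM by library total, so no fold change is given. The intervals and limits of counts cover counting error alone, since reads need not be separate molecules.

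Across libraries, yap1 and wwtr1 were set against ccn1, ccn2a and amotl2a within each group, which made 12 relations. None passed adjustment in either group, and the smallest adjusted p of Pearson's r was 0.374. The strongest by Pearson's r was yap1 with ccn2a in the 10 controls (r = 0.748, permutation p = 0.0329, adjusted 0.374). Spearman's coefficient of that pair was 0.333 (permutation p = 0.349, adjusted 0.697). Without the 2 libraries farthest from the median of yap1, r was 0.324, so the relation rested on those libraries, control replicate 4 among them. In the 8 actl6a libraries the same pair had r = 0.097 (exact permutation p = 0.892, adjusted 0.946) and Spearman's coefficient = 0.167 (exact permutation p = 0.703, adjusted 0.977). By Spearman's coefficient the strongest was yap1 with ccn1 in controls (0.648, permutation p = 0.0503, adjusted 0.372), with r = 0.619, or 0.446 without the 2 libraries farthest from the median of yap1. Next was wwtr1 with ccn1 in controls, of opposite sign (−0.624, permutation p = 0.0620, adjusted 0.372). In the 8 actl6a libraries yap1 with ccn1 had r = 0.460 (exact permutation p = 0.239, adjusted 0.643). Without the 2 libraries farthest from the median of yap1 that r was higher, at 0.813. Over the 18 libraries, after centring each group, the tested genes most like yap1 by Spearman's coefficient of log2 CPM were prickle3 (0.831), itgav (0.804) and LOC110440140 (0.792), and those most like ccn2a were LOC107195253 (0.754), hoxc9a (0.738) and ppp1r3c2b (0.719). These are the highest of all tested genes with a symbol, given as a description.

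The rest of the pathway was followed through 3 lists written from general knowledge, with earlier results of these data already known. Shares called in these lists are therefore given as a description. Upstream of Yap, the list of kinases, scaffolds and regulators had 51 genes, of which 35 had a row and 23 were tested. In actl6a libraries 5 of these 23 accessions were lower (21.7%, beside 8.52% of all tested accessions) and 0 were higher by edgeR's test, and 18 did not pass. DESeq2 called 7 lower and limma-voom 4, and neither called any higher, beside 1475 and 1258 lower among all tested accessions. At an unadjusted p under 0.05 edgeR gave 7 lower and 1 higher of the 23, beside 4507 of all 14462 in either direction. Fitted values were below 0 for 17 and above for 6, with a median log2FC of −0.31. Without control replicate 4, 5 were lower and 1, mob1ba, was higher, beside 1208 lower and 1190 higher among all tested accessions.

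The scaffold gene sav1, whose product holds the MST kinases together, fell from 65.04 ± 9.09 to 48.5 ± 8.42 CPM, at log2FC −0.42 ± 0.119 (adjusted p 0.0218), and 5 of 8 actl6a libraries lay below every control. The gene nf2a encodes a zebrafish form of Merlin, the membrane-linked activator of LATS kinases. The gene of the other form, nf2b, had a log2FC of 0.005 ± 0.280 and did not pass (adjusted p 0.993). Levels of nf2a were 37.5 ± 8.22 and 24.4 ± 6.49 CPM, a log2FC of −0.62 (adjusted p 0.0333), with 3 of 8 actl6a libraries below every control. Its call was lost without control replicate 2, 3 or 5 or actl6a replicate 1 or 2, with adjusted p from 0.0501 to 0.0669. It was also lost in edgeR without a filter on low counts (adjusted p 0.0595). The kinase gene taok1b, related to Drosophila Tao, which phosphorylates the fly MST kinase Hippo, fell from 51.5 ± 15.8 to 29.9 ± 8.82 CPM (−0.79, adjusted p 0.0227). Of the 8 actl6a libraries 3 lay below every control for taok1b. In replicates 1 to 8 of both groups, without a block, edgeR did not call taok1b (adjusted p 0.0641).

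The other 2 of the 5 encode striatins, subunits of the STRIPAK phosphatase complex that acts against MST kinases, so the genes that were lower do not all act in 1 direction on the pathway. Levels of strn4 fell from 74.5 ± 8.36 CPM to 51.6 ± 9.77 CPM, a log2FC of −0.53 ± 0.118 (adjusted p 0.00550), and 7 of 8 actl6a libraries lay below every control. Those of strn fell from 66.2 ± 17.7 to 46.1 ± 5.45 CPM (−0.52, adjusted p 0.0249). For strn 0 of 8 actl6a libraries lay below every control, and limma-voom with sample weights did not call it (adjusted p 0.0557). The kinase gene lats1, the paralogue of lats2, was at 34.2 ± 14.7 and 19.0 ± 9.48 CPM, with a log2FC of −0.84 ± 0.325 that did not pass (adjusted p 0.0815), though it did without actl6a replicate 4 (0.0430). Likewise taok1a (−0.79, adjusted p 0.0568) did not pass, but did without control replicate 1, 2 or 6 or actl6a replicate 7 (0.0134 to 0.0479). The LATS cofactor gene mob1ba (0.23, adjusted p 0.137) did not pass in all 18 libraries, but did without control replicate 4 (0.30, adjusted p 0.0315) and with notochord and endothelium scores as covariates (0.45, adjusted p 0.0289). With the 4 tissue scores as covariates, 0 of the 5 calls were kept by edgeR's test, and the log2FC values lay between −0.56 and −0.29. With notochord and endothelium scores 0 of the 5 were kept either.

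**Figure D4:**
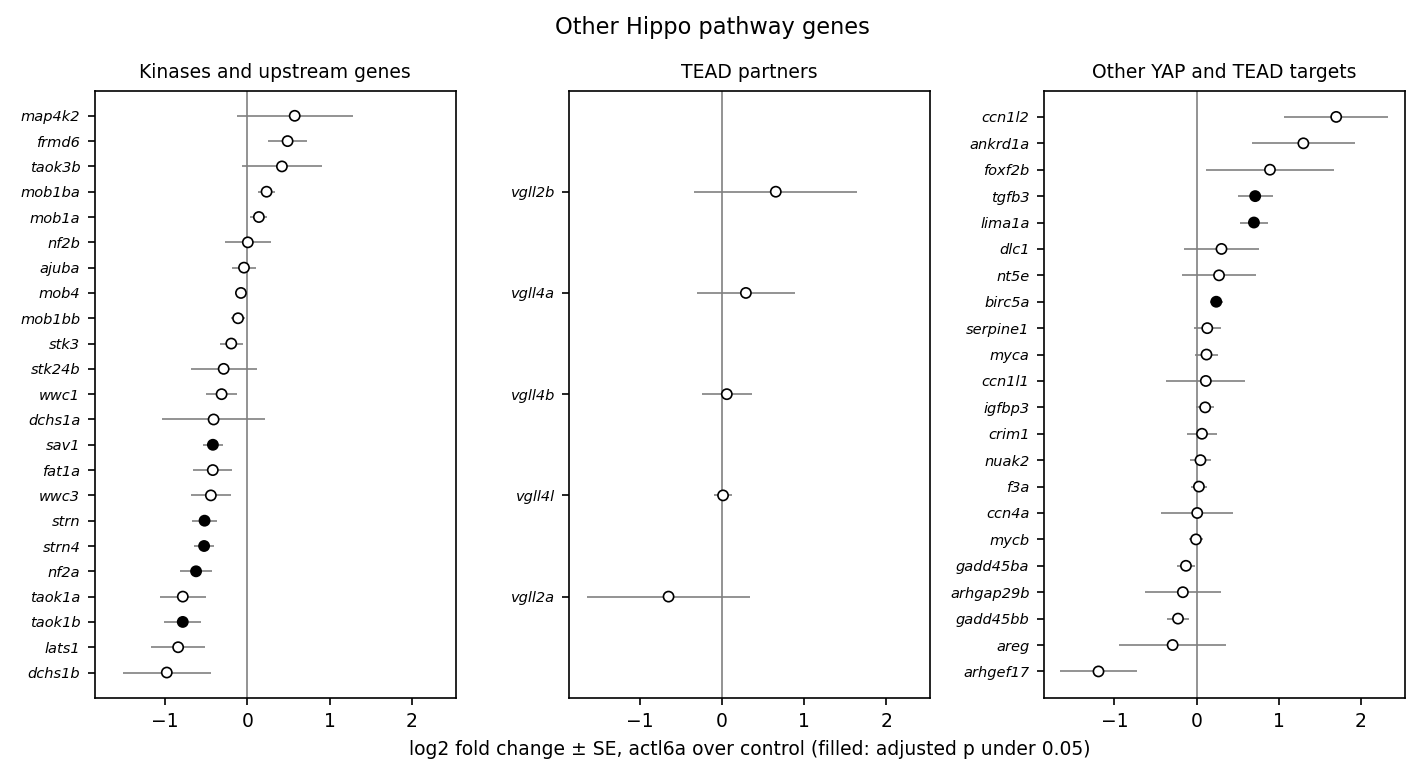
Fitted log2FC (actl6a over control, bars ± SE) of the tested accessions of 3 lists of other Hippo pathway genes, with filled points for an adjusted p under 0.05. In the left panel 5 of 23 genes are filled and all of them lie below 0, in the middle panel 0 of 5, and in the right panel 3 of 22, all above 0.

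The second list held TEAD cofactors of the vestigial-like family and tead3a, 8 genes in all, of which 5 accessions were tested. By edgeR, DESeq2 and limma-voom 0 of the 5 passed, and by edgeR 0 had an unadjusted p under 0.05, the lowest adjusted p being 0.702. The most abundant, vgll4l, from the Vgll4 group whose products compete with Yap for TEAD, was at 128.1 ± 23.2 CPM and 129.1 ± 18.1 CPM, a log2FC of 0.01 whose sign turned with library totals as the scaling (−0.06). The other 4 ran from −0.65 for vgll2a to 0.65 for vgll2b, both of a group known in muscle, with vgll4a (0.29) and vgll4b (0.06) between.

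The third list held 42 other genes reported as targets of Yap or TEAD in various cells, of which 34 had a row and 22 were tested. Of these 3 were higher (13.6%, beside 7.90% of all tested accessions) and 0 lower by edgeR, and 19 did not pass. DESeq2 called 4 higher and 0 lower, beside 1574 and 1475 of all tested accessions. Limma-voom called 1 higher and 1 lower, beside 1244 and 1258. Without control replicate 4 edgeR called 2 higher, beside 1190 higher among all tested accessions, and it called 1 higher without actl6a replicate 1 or 8. At an unadjusted p under 0.05 edgeR had 4 higher and 1 lower of the 22, beside 4507 of all 14462 tested accessions in either direction. The lower one is not among the genes named here. The median log2FC was 0.11. The actin-binding protein gene lima1a rose from 270.5 ± 82.1 CPM to 438.8 ± 96.9 CPM, a log2FC of 0.70 ± 0.171 with an adjusted p of 0.00950 and 4 actl6a libraries above every control. The growth factor gene tgfb3 rose from 31.5 ± 11.5 to 51.8 ± 12.05 CPM (0.71, adjusted p 0.0281), with 5 of 8 actl6a libraries above every control, and lost its call without actl6a replicate 1 or 8 (adjusted p 0.0582 and 0.0623). The mitotic regulator gene birc5a had a log2FC of 0.24 (adjusted p 0.0399), and its call was lost in the 12 fits without control replicate 3, 4, 7, 8, 9 or 10 or actl6a replicate 1, 2, 4, 5, 6 or 8 (adjusted p 0.0527 to 0.0957).

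Several other targets of this list did not pass, and of these ccn1l2 and ankrd1a were at low levels. The ccn1 paralogue ccn1l2 ran from 0.624 to 6.19 CPM in controls. In actl6a libraries it ran from 0 CPM through a median of 5.46 CPM to 44.0 CPM. Its log2FC was 1.70 ± 0.634 (adjusted p 0.0723). In the fits without 1 library that value ran from 0.78 to 1.89. The adjusted p there ran from 0.0319, without actl6a replicate 5, to 0.370. The ankyrin repeat gene ankrd1a, another common readout of Yap, was at 11.6 ± 8.07 and 28.4 ± 27.5 CPM (log2FC 1.298, adjusted p 0.162). The stress genes gadd45bb and gadd45ba were well counted and did not pass either. Levels of gadd45bb were 669.6 ± 128.8 and 572.3 ± 131.1 CPM (−0.23, adjusted p 0.264). Those of gadd45ba were 720.0 ± 97.5 and 657.9 ± 115.2 CPM (−0.13, adjusted p 0.444).

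Summed levels of the marker lists of other tissues overlapped between the groups, and Hippo pathway genes are also expressed in several of these tissues. Median sums in controls and actl6a libraries were 2637 and 4204 CPM for epidermis and 120.2 and 690.8 CPM for blood. For skeletal muscle they were 3996 and 1608 CPM, and for the neural list 467.5 and 466.5 CPM. The summed level of the epidermis list was 2149 to 3970 CPM in controls and 2078 to 9586 CPM in actl6a libraries, with 17 of 19 fitted values above 0. By edgeR 2 of the 19 (10.5%, beside 7.90% of all tested accessions) were higher. At an unadjusted p under 0.05 edgeR had 9 higher, beside 4507 of all 14462 tested accessions in either direction. DESeq2 called 6 higher and 1 lower, beside 1574 and 1475 of all tested accessions, and limma-voom called 0. That of the blood list was 65.1 to 2031 and 255.7 to 5265 CPM, with all 13 fitted values above 0, and that of the skeletal muscle list was 191.9 to 10861 and 668.9 to 14454 CPM. By edgeR 0 of 13 blood and 0 of 15 muscle members were called, and 0 of either had an unadjusted p under 0.05. Limma-voom called 4 blood members higher, beside 1244 of all tested accessions, and DESeq2 called 0 of either list. Control replicate 4 had the lowest muscle sum. The duct list itself summed to 4499 to 6366 and 3975 to 5579 CPM, with 0 of 15 called by edgeR, DESeq2 or limma-voom and 1 lower at an unadjusted p under 0.05 in edgeR. The neural list summed to 329.8 to 548.8 and 365.3 to 1140 CPM. By edgeR 1 of 9 was higher (11.1%, beside 7.90% of all tested accessions). Limma-voom also called 1 higher and DESeq2 3, beside 1244 and 1574 of all tested accessions.

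The notochord list, from a tissue where ccn2a is known to be expressed, summed to 526.8 to 834.8 CPM in controls and 532.8 to 1123 CPM in actl6a libraries. By edgeR 2 of 8 tested members were higher (25.0%, beside 7.90% of all tested accessions) and 1 lower (12.5%, beside 8.52%). The notochord marker tbxta, with too few counts to be tested, was at 0 to 3.94 and 0 to 54.7 CPM. Other notochord markers reached higher levels in controls too. The marker shha was at 0.306 to 61.1 and 4.50 to 83.2 CPM (adjusted p 0.200 by edgeR). Its better counted row put col2a1a at 0 to 55.6 and 5.70 to 119.8 CPM (adjusted p 0.0907 by edgeR). The endothelium list summed to 98.9 to 191.9 and 93.4 to 278.7 CPM. Of its 7 tested members 1 was higher by edgeR (14.3%, beside 7.90% of all tested accessions) and 1 lower (14.3%, beside 8.52%). The defining endothelium markers were near 0 (kdrl at most 1.12, cdh5 at most 3.98 and fli1 at most 0.664 CPM in any library) and were not tested. Notochord and endothelium scores were means of log2 CPM over tested list members, so these markers and tbxta were not in them. Where notochord and endothelium scores were covariates, ccn2a had a log2FC of −0.38 with an adjusted p of 0.195 and yap1 one of 0.27 with an adjusted p of 0.901. The direction of ccn2a was thus kept and that of yap1 was not, and 729 of all tested accessions were called there against 2375. The part of carried-over tissue in the fall of ccn2a was not tested beyond these fits.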

How the data were processed

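Whole-number counts per RefSeq accession were deposited by the authors in 1 table for 10 control and 1 for 8 actl6a libraries. Per the submitters' processing notes, cutadapt, FastQC, STAR, featureCounts and edgeR were used with GRCz11. Their versions and settings, including strand, are not given in the sources used here. Accessions found in 1 table alone got 0 counts in the other. Columns were assigned by barcode. Symbols came from a RefSeq table of another assembly (GRCz12tu), used for names alone, and 20215 of 32820 accessions matched. Counts were tested with edgeR 4.0.16 in R 4.3.3 (filterByExpr, TMM, quasi-likelihood test, group as the only term, two-sided, adjusted p under 0.05 over 14462 accessions). The test was also run on simulated counts, which had no outlying library, carried-over tissue or batch. That run therefore does not bear on the calls of yap1 and ccn2a. CPM uses TMM-scaled totals of tested accessions. Log2 CPM has a prior count of 2. The SE is the absolute log2 fold change over the square root of F. DESeq2 1.42.0 and limma 3.58.1 were alternatives. Contrasts used all 43758 relabellings, and correlations 100000 resamples in controls and all pairings in actl6a libraries.

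The members, lists and tests were chosen with earlier results of these data known. Genes are named by a rule: every member, actl6a, up to 8 tested accessions of each pathway list with the lowest p, and 3 genes most like yap1 and ccn2a. The result for 1 gene of the target list, whose log2 fold change was below 0, is not reported here. The gene nf2b is named outside that rule, beside nf2a, after its value was seen. Tissue markers are named from the marker lists. Contrasts and motif searches that needed amotl2b, tead1b or sequences were not run. The labels do not say whether replicate numbers pair the libraries, so no pairing was used in the main fit.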

Additional observations from a re-analysis of the deposited data

Results flagged for a closer look

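Among 15 groups of CPM values checked by Dixon's test (gap of an end value over the range), 6 had a library far from the rest of its group. The rate of about 5% that chance flags in this test applies to normally distributed values. Low or skewed counts need not follow it, so 6 of 15 is not read as an excess. In controls these were yap1 in replicate 4 (218.5 CPM), ccn2a in replicate 4 (701.1 CPM), tead1a in replicate 2 (6.424 CPM) and lats2 in replicate 8 (0.7597 CPM, from 2 counts). In actl6a libraries they were tead1a in replicate 4 (8.479 CPM) and ccn2a in replicate 8 (337.6 CPM). The last of these is the highest actl6a library for ccn2a, and without it the log2 fold change was −0.53 (adjusted p 0.0227 in edgeR's test).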

How the results depend on the processing

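Of all tested accessions 2375 were called. This became 810 (359 higher, 451 lower) with the 4 tissue scores as covariates and 729 (321 higher, 408 lower) with notochord and endothelium scores, an alternative chosen after seeing the data. In the fits without 1 library 1876 to 2417 were called, with 883 to 1190 higher and 960 to 1307 lower. Of the 2 member calls 1 was kept by DESeq2, by limma-voom and in the fits without 1 library at the least (range 1 to 2), and 0 with either set of scores. The log2 fold change of yap1 was −0.82 by DESeq2, −0.59 by limma-voom, −0.65 with the 4 scores and 0.27 with notochord and endothelium scores, and −3.23 to −0.88 without 1 library. With the same 2 sets of scores ccn2a had −0.43 and −0.38, and ccn1 0.016 and 0.035. For amotl2a the value was 0.27 with the 4 scores and −0.21 to 0.079 without 1 library. Calls among 23 upstream genes, 5 lower in all 18 libraries, were 0 lower with the 4 scores, 1 lower and 1 higher with the other scores (dchs1b, named after its value was seen, and mob1ba, neither among the 5), and 4 to 6 lower and 0 to 1 higher without 1 library. Calls among 22 other targets, 3 higher in all 18 libraries, were 1 higher without a filter and with the 4 scores, 1 higher and 1 lower by limma-voom, 0 with the other scores, and 1 to 3 higher and 0 to 1 lower without 1 library. By DESeq2 lats1 (adjusted p 0.0450), taok1a (0.0321) and ccn1l2 (0.0360) were called too. Signs turned for vgll4b (−0.012) and vgll4l (−0.064) with library totals, vgll4l without a filter (−0.012), vgll2b with the 4 scores (−0.58), and vgll2b (−1.45), vgll4a (−0.14) and ankrd1a (−0.26) with the other scores. Without 1 library vgll4b ran from −0.11 to 0.24 and vgll4l from −0.030 to 0.073. The cause of these changes was not tested. The 2 contrasts kept their direction and stayed outside the threshold in every alternative run, and so did the 12 Pearson correlations with a prior count of 0.5, the one alternative run for them.

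Most same-numbered libraries did not deviate together: their correlations ran from −0.119 to 0.324 (replicate 1), with 1 of 8 over 0.1. Of the 8 controls 1 was closest to its own number, and a weak or partial pairing cannot be told from these values. With the replicate number as a block over replicates 1 to 8, 1058 accessions were called (498 higher, 560 lower), against 1850 in the same libraries without the block, also added after seeing the data. The block left 0 member calls, with yap1 at −1.003 (adjusted p 0.422) and ccn2a at −0.45 (0.0871), 1 upstream gene lower (strn4) and 0 other targets higher. Low counts kept tead1a and lats2 out of the test.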

Other observations

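In control replicate 4, 3 accessions were at 50 CPM or more and over 5 times the CPM of every other library: yap1 (336 counts, 15.9 times the next library), arpin (134 counts, 20.8 times) and zdhhc21 (105 counts, 11.9 times). Over the 18 libraries the number of such accessions ran from 0 to 11, with 11 in actl6a replicate 2 and 0 in 7 libraries. In the same library wwtr1 (56.6 CPM), tead3b (61.8 CPM) and amotl2a (32.5 CPM) lay within the range of the other controls. The duct marker list summed to 6366 CPM there, the highest of all 10 controls. The genes arpin and zdhhc21 were chosen after their values were seen.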
